A study of Mus musculus with 6 samples.

Results

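Cholesterol synthesis, its control by SREBP2 and the export of sterol under the liver X receptors (LXR) were followed through 29 genes, chosen by symbol from 47725 genes in the deposited count table. They were 18 enzymes of cholesterol synthesis, 4 genes of SREBP2 control, the sterol carrier gene Stard4, both LXR genes and 4 LXR targets. All 29 symbols matched 1 identifier each, and all 29 passed the filter on low counts. RNA was sequenced from naive CD4+ T cells of wild type C57BL/6 mice after 3 days of culture under TH17 conditions, with CKBA in 3 libraries and with the vehicle DMSO in 3. The medium of both groups held 10% serum. IL-23, IL-6 and TGF-β1 were added at 10 ng/ml, antibody to IL-4 at 5 µg/ml, to IFN-γ at 10 µg/ml and to CD28 at 2 µg/ml. CKBA is a derivative of the frankincense triterpenoid AKBA, and its dose, the age of the mice and any pooling of animals were not given in the sources used here. The labels do not state whether the libraries stem from separate mice or cultures. The p-values, SEs and intervals therefore rest on the spread between these 6 samples alone, and part or all of it may be technical.

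Cells make cholesterol from acetyl-CoA through mevalonate, squalene and lanosterol. When sterol in the endoplasmic reticulum is low, SCAP carries the transcription factor SREBP2 to the Golgi for cleavage, and the freed factor switches on nearly the whole pathway. When sterol is plentiful, INSIG proteins hold the SCAP complex back, while oxysterols bind LXR, which switches on sterol exporters. In T cells the pathway is engaged on activation to build membrane, and sterol intermediates can act as ligands of RORγt, the transcription factor of the TH17 fate.

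The libraries held 19838347 to 25331863 counts each. Replicates 1 and 2 of each group were near each other (chi-square per gene 3.19 with DMSO, 2.76 with CKBA), and replicate 3 stood apart from them, with 31.8 to 34.6. Counts of called sterol genes are given with and without replicate 3, and values of single genes without it only where named. The labels name epidermis as the tissue and CD4+ T cells as the cell type. The 7 T cell markers summed to 2322 to 2406 CPM (counts scaled by TMM library size) with DMSO and 1986 to 2189 with CKBA, and 6 of 8 keratinocyte markers had no count in any library, with sums of 0.932 to 1.42 CPM with DMSO and 1.76 to 2.00 CPM with CKBA. The 2 CD8 markers summed to 35.2 to 45.7 CPM with DMSO and 27.3 to 32.1 CPM with CKBA, and the 4 fibroblast markers to at most 1.42 CPM. The 10 macrophage and monocyte markers summed to 6.28 to 7.93 CPM with DMSO and 5.19 to 6.84 CPM with CKBA, with Mertk and Marco at 0 counts throughout. The 5 B cell markers summed to 20.6 to 27.2 CPM with DMSO and 12.1 to 54.2 CPM with CKBA, and their part in the results was not tested. By mean CPM the highest and lowest markers were Lck and Cd3d for T cells, Cd8a and Cd8b1 for CD8 cells, Pax5 and Ms4a1 for B cells, and Col1a1 and the undetected Dcn and Pdgfra for fibroblasts. The highest macrophage marker was Cd68, and the highest keratinocyte marker was Krt10.

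No gene of the SREBP2 pathway passed the test with CKBA, and the estimated changes were small. Of its 23 genes 0 rose and 0 fell at an adjusted p under 0.05 in edgeR, in a comparison that called 17.1% of the 13928 genes tested, 7.86% higher and 9.23% lower. At an unadjusted p under 0.05 there were 2 higher and 4 lower members, against 32.7% of all genes in either direction. DESeq2 called 1 member higher and limma on log2(FPKM + 1) called 0, against 18.7% and 14.6% of the genes these fits tested. With no filter on low counts, Msmo1 was higher, beside 9.73% of genes called. The libraries of the groups did not overlap for 5 of the 23 genes, 2 above and 3 below DMSO, or 21.7% against 36.6% of all genes. The log2 fold changes of CKBA over DMSO ran from -0.49 to 0.38, with 11 above and 12 below 0 and a median of -0.052, beside 0.0052 over all genes. For all 23 members the 95% interval lay inside a 2-fold change in either direction, and for 19 it lay inside 1.5-fold. Over all 13928 genes tested these counts were 9747 and 6380. The intervals come from the fit that treats the 6 libraries as independent.

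**Figure D1:**
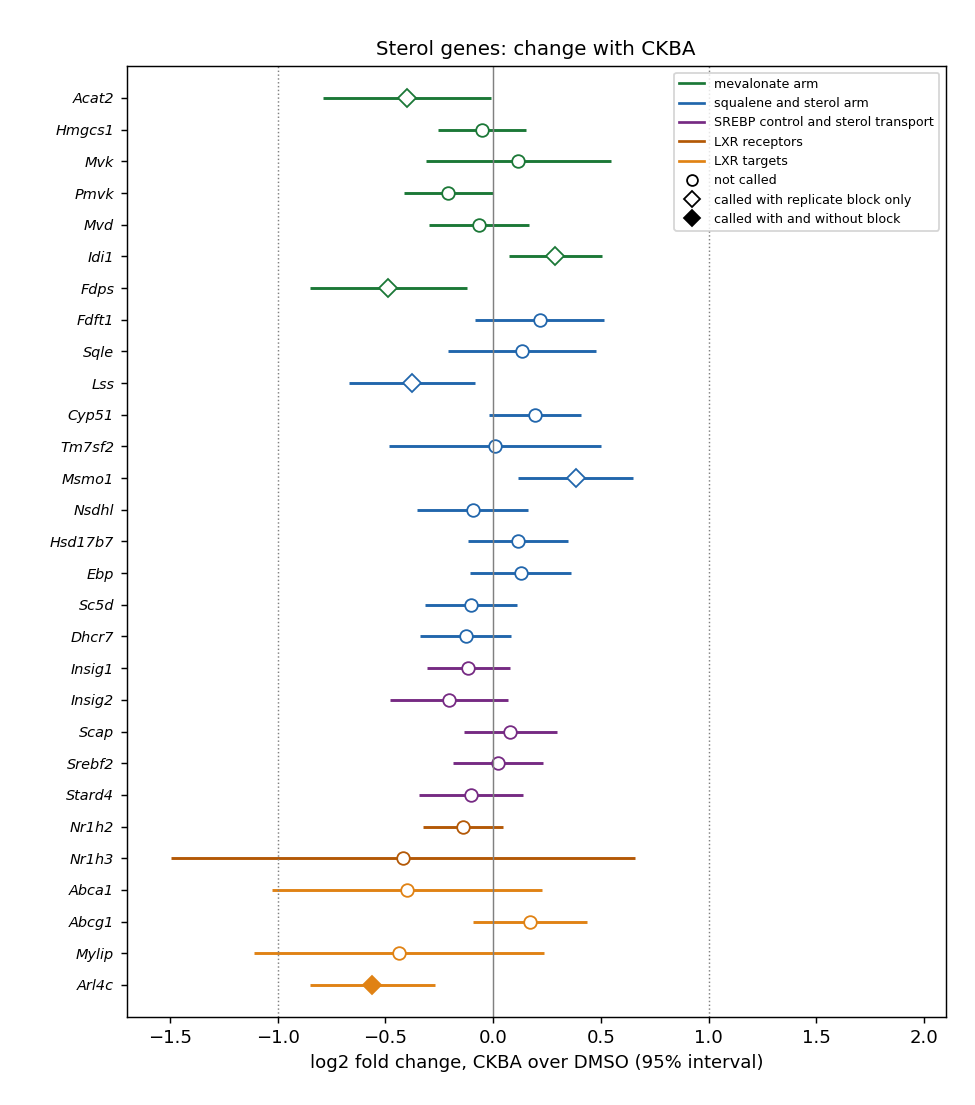
Log2 fold change of CKBA over DMSO with its 95% interval for the 29 genes, ordered by role. Dotted lines mark -1 and 1. Open diamonds mark genes called only with the replicate block, and Arl4c, called with and without it, is the 1 filled symbol, and the intervals of all 23 SREBP2 pathway genes lie between the dotted lines.

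Read per length, as FPKM in the DMSO libraries, the transcript of the regulator stood above those of the enzymes. Srebf2, which encodes SREBP2, had 77.3 ± 3.59 FPKM (mean ± SD, n = 3, the authors' FPKM). The next were Hmgcs1 at 44.2 ± 4.84, Sc5d at 39.6 ± 3.73, Cyp51 at 35.9 ± 1.06, Insig1 at 35.8 ± 0.689 and Mvd at 34.5 ± 3.38, and neighbours from Hmgcs1 to Mvd differed by less than the larger of their SDs. Fdps, which joins isoprene units into farnesyl diphosphate, had the lowest level of the enzymes with 2.04 ± 0.196 FPKM. It has 4 pseudogene copies of at least 95% identity over 300 bases, which together held 48 counts beside 929 for Fdps, so its level is uncertain.

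In the mevalonate arm, Hmgcs1, the synthase that makes HMG-CoA, had 137, 133 and 157 CPM in DMSO replicates 1, 2 and 3 and 145, 139 and 128 CPM in CKBA replicates 1, 2 and 3. The groups overlapped, and the log2 fold change was -0.052 ± 0.089 (SE, adjusted p = 0.728), with a 95% interval of -0.26 to 0.15. Idi1, the isomerase that makes dimethylallyl diphosphate, had 64.2, 53.4 and 65.0 CPM with DMSO and 74.5, 76.2 and 72.3 CPM with CKBA. All 3 CKBA libraries of Idi1 lay above the DMSO libraries, at a log2 fold change of 0.29 ± 0.094 (adjusted p = 0.0716). Idi1 has 2 pseudogene copies, which together held 581 counts beside 8653 for Idi1, and Gm13502 is identical to it over 684 bases, so its level is uncertain too. With the replicate number as a block, a fit described below, Idi1 passed the test (adjusted p = 0.0372). Fdps had 7.78, 9.42 and 8.43 CPM with DMSO and 5.63, 6.53 and 6.13 CPM with CKBA, with every CKBA library below every DMSO library. Its log2 fold change was -0.49 ± 0.16, with an adjusted p of 0.07 and of 0.0406 with the block.

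Acat2, the cytosolic thiolase that joins acetyl-CoA units, had 71.9, 67.6 and 61.0 CPM with DMSO and 58.5, 56.6 and 36.9 CPM with CKBA. The CKBA libraries again lay below the DMSO libraries, and CKBA replicate 3 was the lowest (log2 fold change -0.40 ± 0.17, adjusted p = 0.145, and 0.0188 with the block). Acat2 shares 1477 bases at 97.7% identity with Acat3 and 445 bases at 98.7% with Tcp1, whose 56100 counts exceed the 7379 of Acat2, so its reads may be divided between them. Pmvk, the phosphomevalonate kinase, lay lower in all CKBA libraries, at 26.7, 27.1 and 25.9 CPM against 29.7, 29.6 and 32.9 CPM with DMSO. It was not called with or without the block, at an adjusted p of 0.114 and 0.148. Mvk, the mevalonate kinase, and Mvd, the diphosphomevalonate decarboxylase, overlapped between the groups at log2 fold changes of 0.12 ± 0.19 and -0.066 ± 0.10.

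In the squalene and sterol arm, Msmo1, the methyl sterol oxidase, had 51.4, 47.2 and 54.8 CPM with DMSO and 73.8, 69.8 and 56.5 CPM with CKBA. Replicates 1 and 2 with CKBA were well above all DMSO libraries, and CKBA replicate 3 stood just above the highest of them. The log2 fold change was 0.38 ± 0.12 (adjusted p = 0.0582), 0.0393 with the block and 0.0355 by DESeq2's Wald test. Lss, which closes squalene epoxide into lanosterol, had 83.1, 82.0 and 68.3 CPM with DMSO and 60.7, 68.3 and 50.97 CPM with CKBA. DMSO replicate 3 lay level with CKBA replicate 2, and the log2 fold change of Lss was -0.38 ± 0.13 (adjusted p = 0.0786, and 0.00708 with the block). Msmo1 and Lss, both enzymes of the steps after squalene, thus had estimates of opposite sign.

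Sqle, the squalene epoxidase that paces the sterol branch, had 97.4, 89.5 and 87.1 CPM with DMSO and 116, 108 and 76.4 CPM with CKBA. The CKBA libraries enclosed the DMSO range, with replicates 1 and 2 above it and replicate 3 below. Its log2 fold change was 0.14 ± 0.15 (adjusted p = 0.574). Cyp51, the lanosterol demethylase, had 158, 156 and 159 CPM with DMSO and 196, 189 and 158 CPM with CKBA, where only replicate 3 fell inside the DMSO range. Fdft1, the squalene synthase, had 67.5, 62.9 and 76.9 CPM with DMSO and 86.0, 88.7 and 66.1 CPM with CKBA, the same arrangement of libraries. Exons of Fdft1 overlap those of Ctsb on the other strand over 18.3% of their bases, and reads there cannot be told apart without strand. The other 6 enzymes of this arm, Tm7sf2, Nsdhl, Hsd17b7, Ebp, Sc5d and Dhcr7, overlapped between the groups, with log2 fold changes of -0.13 to 0.13.

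The genes of SREBP2 control and the sterol carrier gene Stard4 did not pass the test. Srebf2 had 368, 400.0 and 385 CPM with DMSO and 424, 401 and 346.5 CPM with CKBA, a log2 fold change of 0.023 ± 0.091 with an interval of -0.19 to 0.23. Insig1, itself a sensitive SREBP2 target that retains SCAP, had 111, 114 and 106 CPM with DMSO and 107, 107 and 92.2 CPM with CKBA (log2 fold change -0.12 ± 0.084, adjusted p = 0.385). Insig2, the second retention gene, had 29.1, 30.9 and 27.3 CPM with DMSO and 23.4, 23.2 and 29.1 CPM with CKBA (-0.20 ± 0.12, adjusted p = 0.278). For Insig2 replicate 3 again broke the pattern, since its CKBA library was at the DMSO level. Scap and Stard4, the carrier that moves sterol between membranes, had estimates of 0.080 ± 0.094 and -0.10 ± 0.10.

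**Figure D2:**
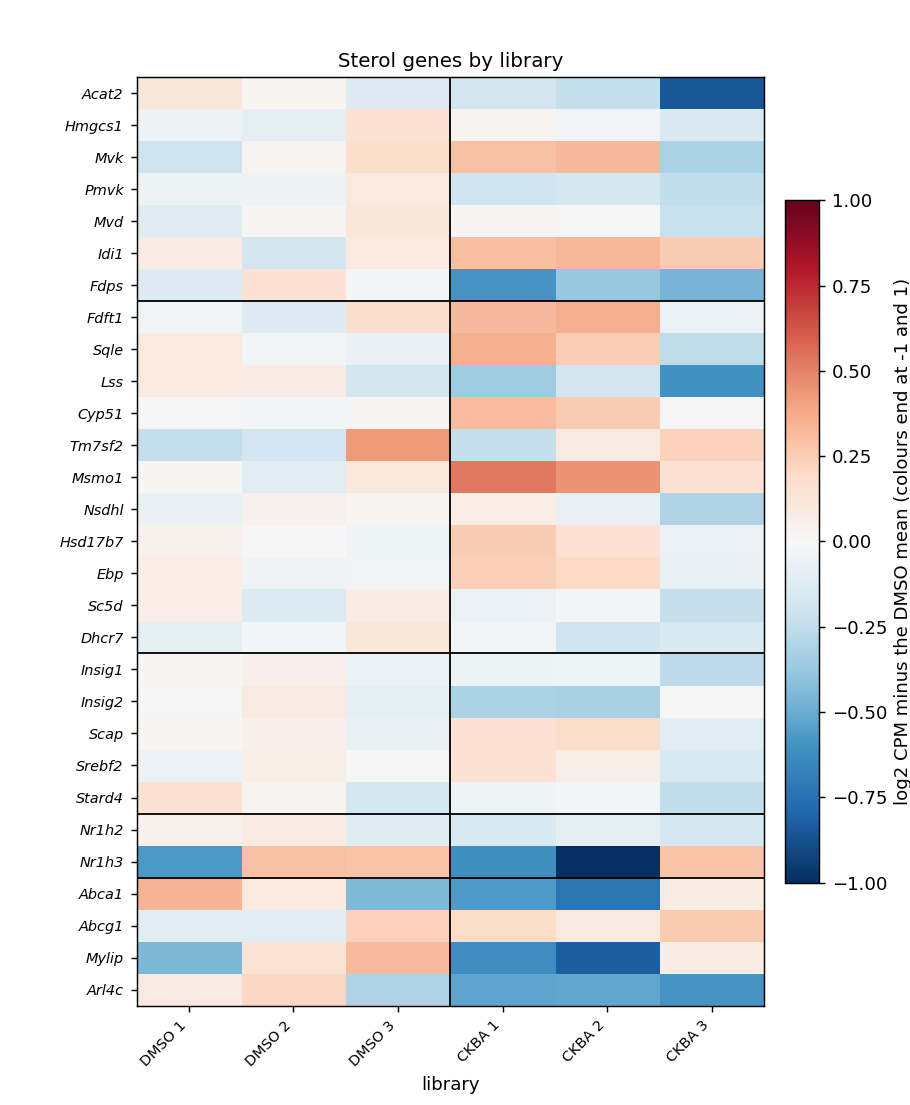
Log2 CPM of each of the 29 genes minus its DMSO mean, by library, with red above and blue below. Horizontal lines part the mevalonate arm, the squalene and sterol arm, SREBP control with Stard4, the LXR genes and the LXR targets. The CKBA 3 column is paler or bluer than CKBA 1 and 2 in most rows of the upper blocks, and Arl4c is blue in all 3 CKBA libraries.

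Library pair 3 went apart from the other pairs across the pathway. Within same-numbered libraries, the median log2 difference of CKBA minus DMSO over the 23 SREBP2 pathway genes was 0.13 in pair 1, 0.062 in pair 2 and -0.20 in pair 3. It was above 0 in 15, 13 and 3 of the 23 genes. In 19 of 23 genes (82.6%) the difference of pair 3 lay below those of both other pairs, beside 38.7% of all 13928 genes. Of the 11 genes of the squalene and sterol arm this held for 10. The 23 genes together had 1863, 1851 and 1868 CPM in DMSO replicates 1, 2 and 3, and 2000.2, 1961 and 1659 CPM in CKBA replicates 1, 2 and 3. The DMSO sums were thus nearly equal, and those with CKBA lay above them in replicates 1 and 2 and below them in replicate 3. Medians over all genes were -0.0042, 0.0038 and 0.0069 in the 3 pairs.

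**Figure D3:**
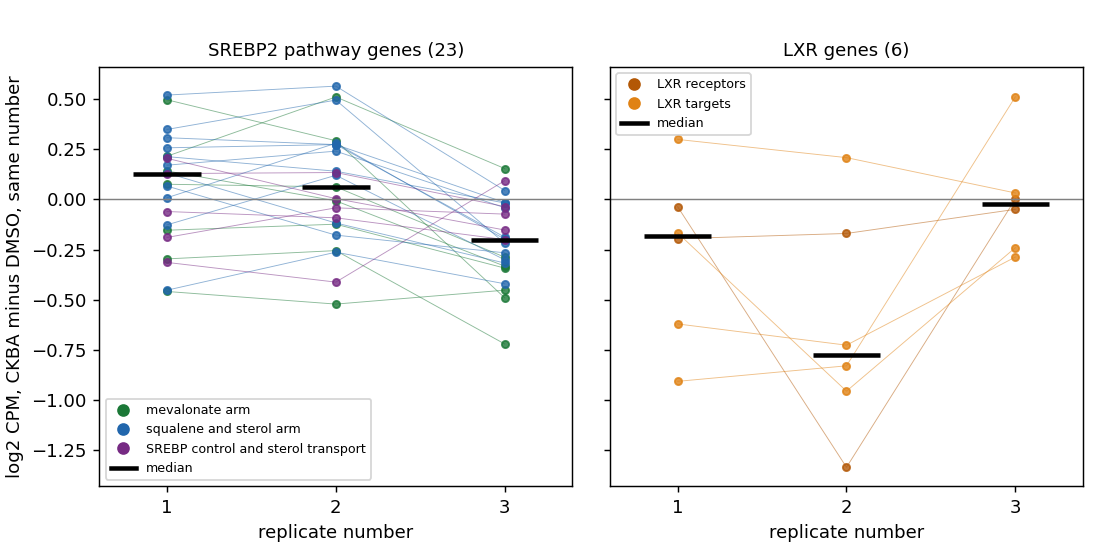
Log2 CPM of CKBA minus DMSO for libraries of the same replicate number, with 1 line per gene and black bars at the medians. The left panel holds the 23 SREBP2 pathway genes, with medians of 0.13, 0.062 and -0.20. The right panel holds the 6 LXR genes, with medians of -0.18, -0.78 and -0.024.

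Same-numbered libraries deviated together from their group means over all genes, with correlations of 0.24, 0.24 and 0.44 for numbers 1, 2 and 3. Numbers 1 and 2 correlated as much with each other (0.24 and 0.23), so only number 3 is set apart. A fit with the replicate number as a block was also made. It called 28.2% of all genes, 13.8% higher and 14.4% lower, and of the 23 SREBP2 pathway genes 2 higher and 3 lower. These were Idi1 and Msmo1 above, and Acat2, Fdps and Lss below. Without CKBA replicate 3, 5 members were higher (Idi1, Fdft1, Sqle, Cyp51 and Msmo1) and Insig2 was lower, where 27.9% of all genes were called. Without DMSO replicate 3, Idi1 and Msmo1 were higher and Lss was lower, beside 21.9% of all genes. With both libraries numbered 3 left out, 9 of 23 members were higher and 4 lower, in a fit that called 52.8% of all genes, 26.1% higher and 26.6% lower. This fit held only replicates 1 and 2, which lay near each other (chi-square per gene 3.19 with DMSO, 2.76 with CKBA). Part or all of its spread may thus be technical. When the counts of replicates 1 and 2 were summed within each group, 0 of the 29 members were called, beside 0.732% of all genes, 0.372% higher and 0.359% lower.

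Promoters are shown for Hmgcs1, the HMG-CoA synthase gene, and for Idi1, Msmo1 and Lss, which passed the blocked fit in opposite directions. The promoter of Arl4c, the LXR member that was called lower, is shown as well. RefSeq windows of 250 bases before to 50 bases after the start, build GRCm38.p6, were matched for 24 of the 29 genes. They are written 5′ to 3′ on the strand of the gene. Capitals mark TCACNCCAC, a sterol regulatory element, and CCAAT, the box bound by NF-Y, a partner of SREBP at sterol promoters, searched on both strands so that the reverse complement ATTGG also appears. The motifs do not overlap in these windows.
Hmgcs1 (chr13:119690101-119690400, plus strand): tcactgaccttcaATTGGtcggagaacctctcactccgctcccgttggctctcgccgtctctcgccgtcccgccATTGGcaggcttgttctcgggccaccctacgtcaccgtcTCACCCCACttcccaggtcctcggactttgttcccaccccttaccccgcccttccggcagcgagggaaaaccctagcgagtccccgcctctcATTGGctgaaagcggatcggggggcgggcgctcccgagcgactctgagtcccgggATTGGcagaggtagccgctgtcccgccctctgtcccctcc
Idi1 (chr13:8885356-8885655, plus strand): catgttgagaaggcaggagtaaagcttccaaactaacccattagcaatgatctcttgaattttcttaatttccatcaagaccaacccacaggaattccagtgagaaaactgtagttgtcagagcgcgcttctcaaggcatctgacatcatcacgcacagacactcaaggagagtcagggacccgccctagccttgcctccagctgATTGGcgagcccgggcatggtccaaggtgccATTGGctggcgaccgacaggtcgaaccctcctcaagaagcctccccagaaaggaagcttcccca
Msmo1 (chr8:64733529-64733828, minus strand): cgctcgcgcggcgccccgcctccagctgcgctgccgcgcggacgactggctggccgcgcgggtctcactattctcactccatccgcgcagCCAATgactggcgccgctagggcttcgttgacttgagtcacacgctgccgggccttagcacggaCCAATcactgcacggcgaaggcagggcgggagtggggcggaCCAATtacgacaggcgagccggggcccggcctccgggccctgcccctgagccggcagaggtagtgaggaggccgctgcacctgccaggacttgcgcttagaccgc
Lss (chr10:76531355-76531654, plus strand): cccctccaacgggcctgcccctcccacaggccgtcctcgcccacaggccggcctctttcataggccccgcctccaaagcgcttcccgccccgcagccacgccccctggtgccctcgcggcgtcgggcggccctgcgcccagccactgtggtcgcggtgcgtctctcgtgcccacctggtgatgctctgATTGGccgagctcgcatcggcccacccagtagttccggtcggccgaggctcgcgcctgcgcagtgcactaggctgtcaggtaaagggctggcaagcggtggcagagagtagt
Arl4c (chr1:88702142-88702441, minus strand): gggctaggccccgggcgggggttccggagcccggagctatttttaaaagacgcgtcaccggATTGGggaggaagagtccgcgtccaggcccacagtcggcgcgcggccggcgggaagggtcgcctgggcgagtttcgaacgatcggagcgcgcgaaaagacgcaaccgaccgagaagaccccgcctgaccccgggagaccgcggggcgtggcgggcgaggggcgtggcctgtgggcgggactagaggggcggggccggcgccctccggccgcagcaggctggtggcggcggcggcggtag

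The sterol element matched in Hmgcs1 only, 1 of 19 SREBP2 pathway genes with a window, beside 1.44% of 27025 genes. The CCAAT box matched in 17 of those 19 genes, in 2 of 5 LXR genes and in 41.1% of all genes with a window. Of the windows shown, Hmgcs1 had 4 boxes, Msmo1 3, Idi1 2, and Lss and Arl4c 1 each. Over all members with a match the number ran from 1 to 5, the last in Mvk. The LXR element, 2 direct copies of AGGTCA spaced by 4 bases and bound by LXR with its partner RXR, matched in 0 of the 5 LXR genes and in 0.0148% of all genes. A missing match says only that these letters are not in this window.

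**Figure D4:**
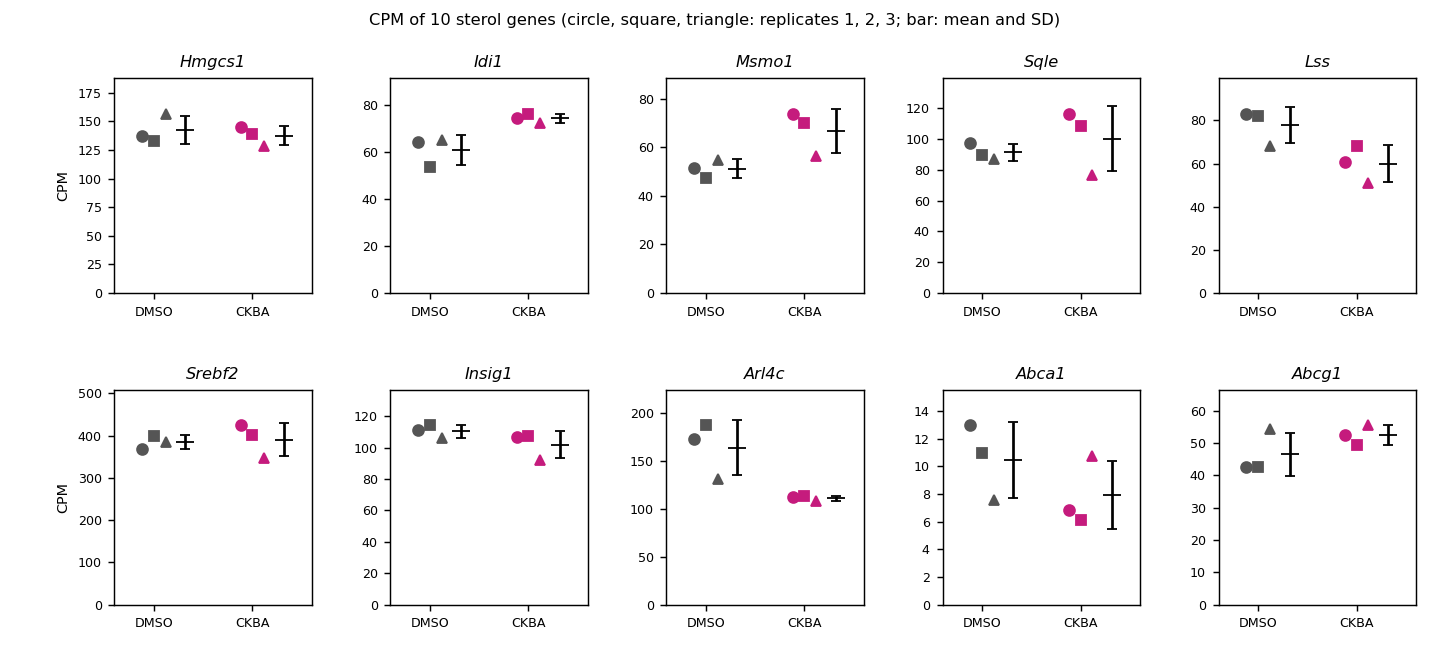
CPM of 10 of the genes in each library, with circles, squares and triangles for replicates 1, 2 and 3 and a bar for mean and SD (n = 3). The CKBA triangle of Sqle sits below the DMSO points while its circle and square sit above them, and the CKBA points of Arl4c, at 107 to 113 CPM, lie below all DMSO points.

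On the LXR side 1 of 6 genes fell and 0 rose. Arl4c (chr1:88673125-88702221, minus strand, GRCm38), a small GTPase gene that LXR induces and that aids cholesterol transport in macrophages, had 172, 187 and 131 CPM with DMSO and 112, 113 and 107 CPM with CKBA. The CKBA libraries were tightly grouped and all below DMSO replicate 3, the lowest of its group. The log2 fold change was -0.56 ± 0.13 (adjusted p = 0.0213 in edgeR) and its interval was -0.85 to -0.27, in a comparison that called 9.23% of genes lower. In the authors' deposited table Arl4c had a log2 fold change of -0.57 and an FDR of 0.00266, and it was the 1 member of 29 with an FDR under 0.05. The significance column of the authors' deposited table marks Arl4c "no", as it does all 29 members. Leaving out DMSO replicate 1 or 2 ended the call (adjusted p = 0.0936 without DMSO replicate 1, 0.0939 without DMSO replicate 2). So did leaving out CKBA replicate 1 (0.0802) or 2 (0.0796). These fits called 4.8%, 4.48%, 5.59% and 5.52% of all genes. The call held without DMSO replicate 3 (0.00117) or CKBA replicate 3 (0.0361), where 21.9% and 27.9% of all genes were called. With replicates 1 and 2 summed it was lost (adjusted p = 0.262), beside 0.732% of all genes called.

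The exporters did not pass the test. Abca1, which loads cholesterol onto lipid-poor apolipoprotein, had 12.97, 10.99 and 7.53 CPM with DMSO and 6.87, 6.14 and 10.8 CPM with CKBA. It was lower with CKBA in pairs 1 and 2, by -0.91 and -0.83 on the log2 scale, and higher in pair 3, by 0.51, and over all libraries the log2 fold change was -0.40 ± 0.27 (adjusted p = 0.352). Abcg1, which exports cholesterol to formed lipoprotein and limits sterol supply in proliferating T cells, had 42.7, 42.6 and 54.2 CPM with DMSO and 52.6, 49.3 and 55.5 CPM with CKBA. Its estimate of 0.17 ± 0.11 (adjusted p = 0.341) was the 1 positive value among the 6 genes. Mylip, the ubiquitin ligase that removes lipoprotein receptors, had 5.95, 8.98 and 10.2 CPM with DMSO and 5.29, 4.58 and 8.63 CPM with CKBA. The groups overlapped, at -0.44 ± 0.29 (adjusted p = 0.342).

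Of the receptors, Nr1h2, which encodes the widely expressed LXRβ, stood at 32.7 ± 1.79 FPKM with DMSO and Nr1h3, which encodes LXRα, at 0.460 ± 0.156 FPKM. Nr1h2 had 113, 116 and 100.3 CPM with DMSO and 98.5, 103 and 96.9 CPM with CKBA, a log2 fold change of -0.14 ± 0.080 (adjusted p = 0.266). Nr1h3 lay at 0.487 to 1.37 CPM over the 6 libraries, and its interval of -1.49 to 0.66 leaves its change poorly measured. Over the 6 genes the median log2 fold change was -0.41, and -0.17 by limma on log2(FPKM + 1), where the pseudocount shrinks low genes. Within same-numbered libraries the median log2 difference over these genes was -0.18, -0.78 and -0.024 in pairs 1, 2 and 3. It was above 0 in 1, 1 and 3 of the 6 genes. The SREBP2 genes and the LXR genes thus differed in their medians in the fit to all libraries, and this difference was not tested. Within pair 3 the order was reversed, at -0.20 for the SREBP2 genes and -0.024 for the LXR genes. However, 3 of 6 LXR intervals against 23 of 23 SREBP2 intervals lay inside a 2-fold change, beside 9747 of 13928 over all genes. Without the libraries numbered 3 of both groups, Nr1h2, Abca1, Mylip and Arl4c were lower and Abcg1 was higher, in the fit that called 52.8% of all genes (26.1% higher, 26.6% lower). That fit held replicates 1 and 2 alone, which lay near each other, so part or all of its spread may be technical. Fewer cells of a type and less RNA per cell cannot be told apart in these bulk samples.

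Larger changes were found among 72 further sterol genes, of which 64 were tested, 6 rose and 6 fell. The share called, 18.8%, was close to the 17.1% over all genes, and the median log2 fold change was 0.036. None of the 12 calls stood with replicates 1 and 2 summed, and with the block 11 were higher and 12 lower, or 35.9% beside 28.2% of all genes (13.8% higher, 14.4% lower). Among those that fell was Gramd1a (chr7:31130127-31155896, minus strand), which encodes Aster-A, a carrier of cholesterol from the plasma membrane to the endoplasmic reticulum. It had 524, 542 and 526 CPM with DMSO and 251, 274 and 312 CPM with CKBA, a log2 fold change of -0.93 ± 0.091 (adjusted p = 9.77e-04). The groups were far apart, and the call held without any 1 of the 6 libraries (adjusted p of up to 0.00968) but not with replicates 1 and 2 summed (0.0622).

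Soat2 (chr15:102150526-102163469, plus strand), which esterifies cholesterol for storage, rose from 4.58, 3.53 and 2.97 CPM with DMSO to 12.6, 14.1 and 10.98 CPM with CKBA. This was a log2 fold change of 1.77 ± 0.20 (adjusted p = 0.0019), held without any 1 library (up to 0.0166) and lost with replicates 1 and 2 summed (0.0588). Soat1, the other sterol esterifying enzyme of the list, was far more abundant and was not called. It had 91.5 ± 12.7 CPM with DMSO and 82.7 ± 9.31 CPM with CKBA (-0.15 ± 0.12, adjusted p = 0.449) and was named after its values were seen. The oxysterol-binding protein gene Osbpl2 rose from 51.5 ± 2.37 to 70.0 ± 5.01 CPM (0.44 ± 0.086, adjusted p = 0.0131). Stard5, of the same lipid carrier family as Stard4, rose from 28.8 ± 3.09 to 40.0 ± 3.74 CPM (0.47 ± 0.11, adjusted p = 0.0275), and 22.0% of its exon bases overlap Il16 on the other strand. Lipa, the lysosomal lipase that frees cholesterol from esters, fell from 57.2 ± 2.79 to 43.7 ± 4.04 CPM (-0.39 ± 0.094, adjusted p = 0.0286) and was named after its values were seen. Of the 20 genes of sterol uptake, transport and storage, 3 rose and 2 fell, beside 7.86% and 9.23% of all genes.

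Among 13 genes of SREBP processing and sterol-regulated degradation, 1 rose and 2 fell, or 23.1% beside 17.1% of all genes called. Rnf145 (chr11:44518964-44565520, plus strand), a ubiquitin ligase that acts on SCAP and is an LXR target in mouse liver, had 316, 314 and 221 CPM with DMSO and 152, 149 and 156 CPM with CKBA. The CKBA values were close together and below all DMSO values, with DMSO replicate 3 the nearest (-0.90 ± 0.14, adjusted p = 0.00545, up to 0.0333 without any 1 library and 0.139 with replicates 1 and 2 summed). Paqr3, which tethers the SCAP complex at the Golgi, rose from 5.56 ± 0.642 to 8.52 ± 0.616 CPM (0.61 ± 0.16, adjusted p = 0.0381), and 15.7% of its exon bases overlap Bmp2k on the other strand. Fbxw7, part of the ligase that clears nuclear SREBP, fell from 71.1 ± 4.36 to 58.2 ± 2.55 CPM (-0.29 ± 0.081, adjusted p = 0.0455).

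**Figure D5:**
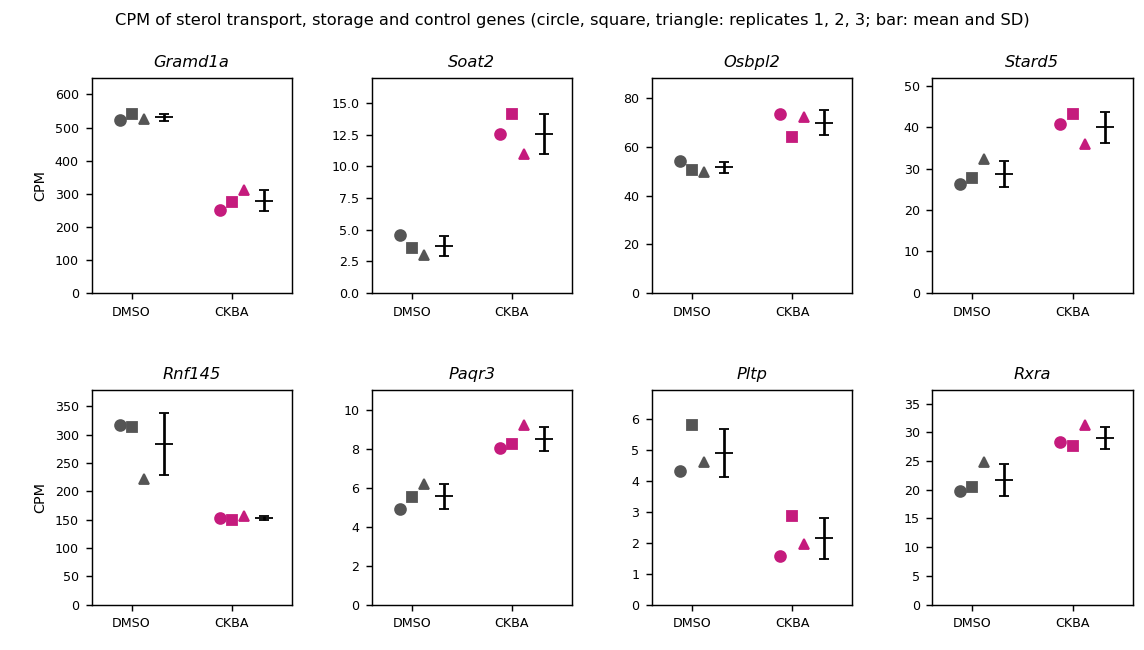
CPM of 8 further sterol genes in each library, with circles, squares and triangles for replicates 1, 2 and 3 and a bar for mean and SD (n = 3). Gramd1a, Rnf145 and Pltp lie lower in all CKBA libraries, and Soat2, Osbpl2, Stard5, Paqr3 and Rxra lie higher.

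In the remaining lists single genes passed in a direction, again beside 17.1% of all genes called. Of 9 tested LXR partners, further targets and oxysterol enzymes, Rxra, the receptor that pairs with LXR, rose from 21.7 ± 2.80 to 29.1 ± 1.89 CPM (0.42 ± 0.12, adjusted p = 0.0465). Pltp, the phospholipid transfer protein gene and an LXR target in mouse macrophages, fell from 4.91 ± 0.777 to 2.14 ± 0.667 CPM (-1.20 ± 0.28, adjusted p = 0.0233), and 19.3% of its exon bases overlap Ctsa on the other strand. The other 7 tested genes were not called. Among them were Lpcat3 (-0.31 ± 0.11, adjusted p = 0.0786) and Smpdl3a (-0.42 ± 0.23, adjusted p = 0.248), both named after their values were seen. A further 8 of the 17 genes in this list had too few counts to test. Ch25h, which makes an oxysterol, was 1 of these and had at most 1 count in any library (named after its values were seen). Of 17 genes of the isoprenoid branches, Rabggta, a subunit of the enzyme that lipidates Rab proteins, fell from 34.7 ± 6.71 to 24.2 ± 0.553 CPM (-0.52 ± 0.14, adjusted p = 0.0443), and 0 rose. Of 5 further synthesis enzymes, Idi2, the second isomerase gene, rose from 0.417 ± 0.387 to 4.35 ± 4.19 CPM (3.36 ± 0.86, adjusted p = 0.0332). CKBA replicate 3 held 9.18 CPM of Idi2 against 2.27 and 1.61 CPM in the other CKBA libraries, and Idi2 shares 858 bases at 99.4% identity with Gm9745. Rxra, Pltp, Rabggta and Idi2, as well as Osbpl2, Stard5, Lipa, Paqr3 and Fbxw7, each lost the call in at least 3 of the 6 fits that left out 1 library. Those fits called 4.48% to 27.9% of all genes.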

How the data were processed

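Estimated counts and FPKM per gene and library were deposited by the authors, from RSEM (version not given), CASAVA 1.8 and the GRCm38 build, per the submitters' processing notes. The aligner, annotation release and strand setting were not given in the sources used here. RSEM divides reads between near-identical copies. All 47725 rows of expected counts were whole, so rounding changed 0 of them. The authors' deposited log2 fold changes and their p-values with FDR are quoted only where named. The submitters' processing notes list edgeR.

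From the counts, 13928 genes passing filterByExpr entered edgeR 4.0.16 under R 4.3.3 (quasi-likelihood F test, robust dispersion, TMM, Benjamini-Hochberg adjustment over all genes, call at an adjusted p under 0.05). CPM uses TMM library sizes, with 1 count worth 0.0391 to 0.0508 CPM. SE and 95% intervals come from the same fit, and ± in parentheses is SE and after CPM or FPKM SD (n = 3). The fit was tested on simulated data. Alternatives were DESeq2 1.42.0, limma 3.58.1 on log2(FPKM + 1), RLE scaling, other filters, a replicate block, each library left out, replicates 1 and 2 summed, and both libraries numbered 3 left out. Deviations from group means correlated by 0.24, 0.24 and 0.44 within same-numbered pairs, and also by 0.24 and 0.23 between numbers 1 and 2, so the pairing comes from the data and separates number 3 only.

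The 29 genes, 72 further pathway genes and 36 markers were chosen with earlier results of these data known, so lists carry counts and medians and no set test. Named were all 29 genes, up to 4 called genes with the smallest adjusted p in each further list, and the highest and lowest markers. Positions and overlaps come from GENCODE M21 (GRCm38), copies from blastn 2.17.0 (at least 95% identity over 300 bases), promoters from RefSeq. A second deposited table of pathway annotations was not used.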

Additional observations from a re-analysis of the deposited data

How the results depend on the processing

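RLE scaling moved no count for the sterol gene groups. With no filter 1 SREBP2 pathway gene was higher, and 4 further sterol genes were higher and 5 lower (6 and 6 with it), with Idi2, Paqr3 and Fbxw7 no longer called. The CPM filter gave 7 higher and 6 lower further sterol genes. DESeq2 gave 1 higher SREBP2 pathway gene, and 6 higher and 5 lower further sterol genes. The libraries that entered mattered more, and the cause was not tested. With the replicate block 1922 genes were higher and 2009 lower of all genes (1095 and 1286 without it), 2 and 3 of the SREBP2 pathway genes, and 11 and 12 of the further sterol genes. The block changed no call of an LXR gene. With replicates 1 and 2 summed the counts were 56 and 54 over all genes, 0 lower LXR genes, and 0 and 0 further sterol genes. With both libraries numbered 3 left out they were 3660 and 3728 over all genes, 9 and 4 SREBP2 pathway genes, 1 and 4 LXR genes, and 18 and 18 further sterol genes. By limma 2 further sterol genes were higher and 5 lower.

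With 1 library left out in turn, 251 to 1961 genes were higher and 390 to 2014 lower. In those fits 0 to 5 SREBP2 pathway genes were higher and 0 to 1 lower, 0 to 1 LXR genes were lower, 1 to 8 further sterol genes were higher and 2 to 11 lower. The SREBP2 median ran from -0.087 to 0.024, positive without DMSO replicate 3 (0.024) or CKBA replicate 3 (0.00072), and it was 0.070 without both libraries numbered 3. The LXR median (-0.41) ran from -0.61 to -0.20 in those fits and was -0.64 without both libraries numbered 3. It was -0.17 by limma on log2(FPKM + 1), and below 0 in all 14 alternatives. Each alternative kept replicate 1 or 2 of both groups, while within pair 3 alone the LXR median difference was -0.024.

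Of 406 values of single members under the alternatives, 353 kept direction and side of the threshold, 33 passed it newly, 5 lost it and 15 turned sign. Without both libraries numbered 3 Hmgcs1 was at 0.070, Mvd at 0.067 and Nsdhl at 0.0080. With replicates 1 and 2 summed Mvk was at -0.017, Tm7sf2 at -0.047 and Srebf2 at -0.018. With 1 library left out, Hmgcs1 ran from -0.096 to 0.024, Mvd from -0.13 to 0.011, Nsdhl from -0.18 to 0.00072, Srebf2 from -0.036 to 0.10 and Tm7sf2 from -0.11 to 0.26. Depth limits Nr1h3 most, at about 1 CPM.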
